A study of Mus musculus with 7 samples.

Results

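The genes that handle drugs and other foreign chemicals were followed through a mouse model of recurrent colitis. A gene was taken as a member when the symbol its probe set carries in the platform annotation belongs to one of 9 enzyme and transporter families. These are the cytochrome P450 enzymes, flavin monooxygenases, carboxylesterases, epoxide hydrolases, aldehyde dehydrogenases, glutathione transferases, sulphotransferases, UDP glucuronosyltransferases, and transporters of the ABCB, ABCC and ABCG groups. The choice used names alone and no measured value. It gave 101 of the 8251 genes on the array: 59 of phase 1, 27 of phase 2 and 15 of efflux. Of these, 46 had a signal of at least 100 in 1 or more RNA pools and entered the comparisons, among 4316 such genes in all: 22 of phase 1, 17 of phase 2 and 7 of efflux. The names also take in some enzymes whose known substrates are the body's own, such as the steroid hydroxylase Cyp21a1 and the sterol demethylase Cyp51.

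Foreign chemicals are handled in steps. In phase 1 an enzyme adds or uncovers a reactive group, by oxidation (cytochrome P450, flavin monooxygenase, aldehyde dehydrogenase) or by hydrolysis (carboxylesterase, epoxide hydrolase). In phase 2 that group is joined to glutathione, sulphate or glucuronic acid, which makes the product more soluble, and ATP-driven transporters then pump the conjugate out of the cell. The liver holds most of this capacity, and the epithelium of the gut holds a smaller set of the same families as a first barrier to what is swallowed or made by bacteria.

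All mice were female outbred CD-1, 10 to 12 weeks old at the start, and received 6 enemas of the hapten TNBS in ethanol or of saline, with no group given ethanol alone. TNBS-w6 pooled colon RNA of 6 mice at 3 days after their final enema, TNBS-w8 of 4 mice at 2 weeks, TNBS-w10 of 5 mice at 4 weeks and TNBS-w12 of 4 mice at 6 weeks. Saline-w6 pooled 5 mice killed at 3 days and was read on 2 arrays, and Saline-w10 pooled 4 mice, of which 2 were killed at 2 weeks and 2 at 4 weeks. The tissue lay 4 ± 0.5 cm from the anus, and the study set TNBS-w6 against Saline-w6 and the other 3 TNBS pools against Saline-w10. Each condition is therefore 1 pool of animals, a single comparison has no replicate error, and differences between pools carry no p-value. In whole colon, fewer cells of a type and less RNA per cell cannot be told apart.

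The 7 arrays had median signals of 51.7 to 61.1 in units scaled by the authors to a target of 150, and 45.4% to 49.2% of probe sets lay under 50. Signals under 50 were set to 50 before taking log2, so a fold against such a value is a bound and is written as "at least". Between the 2 arrays of the Saline-w6 pool, the log2 differences of the 46 members had an SD of 0.27, and 0 of 46 members differed 2-fold or more (0.371% of the 4316 genes were lower on array 1 by that much and 0.348% higher). Actb, read by probe sets at either end of its transcript, had a 3' to 5' ratio of 1.14 to 1.24 on the week 6 arrays and 0.799 to 0.819 on the later ones, so that measure of RNA integrity differed more between the times than between TNBS and saline arrays of the same time. Gapdh, read alike, did not split by time, with 0.912 to 0.942 on the week 6 arrays and 0.869 to 1.004 on the later ones. TNBS-w8 had the highest Gapdh ratio, the lowest median signal (51.7) and the most probe sets under 50 (49.2%).

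The colon showed part of each family. Past the filter were 11 of 15 glutathione transferases, 2 of 3 UDP glucuronosyltransferases, 6 of 10 aldehyde dehydrogenases, 7 of 15 transporters, 4 of 9 sulphotransferases, 2 of 5 carboxylesterases and 14 of 40 cytochrome P450 genes. Neither epoxide hydrolase and neither flavin monooxygenase passed it, although Ephx1 reached 62.4 and Fmo1 92.2 on their highest arrays. A further 41 members read under 50 on all 7 arrays. Among them were Cyp1a1, Cyp1a2 and Cyp1b1, known targets of the dioxin receptor, the hepatic enzyme Cyp3a11, the bile acid enzymes Cyp7a1 and Cyp8b1, and the glutathione transferases Gsta1 and Gsta3. The other 14 lay between these limits in at least 1 array without passing the filter. Of the 46 that passed, 25 did so in all 6 pools and 6 in exactly 1 pool: Aldh1a3 through TNBS-w6, Sult2b1 through TNBS-w8, Cyp2f2 through TNBS-w12, Abcb9 and Cyp4v3 through Saline-w6, and Cyp2d9 through Saline-w10. A gene admitted by 1 pool alone had to be highest there.

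At 2 weeks after the last enema, signals of many of these enzymes were low. In TNBS-w8, 9 of 46 members (19.6%) were at least 2-fold lower than in Saline-w10, against 1.76% of all genes, and 0 members were 2-fold higher, against 1.53%. The 9 were the cytochrome P450 genes Cyp2c38, Cyp2c39, Cyp2d9 and Cyp3a13, the carboxylesterase Ces1d, the glutathione transferases Gsta4, Gstm2 and Gstt1, and the sulphotransferase Sult1a1. Cyp2d9 passed the filter only through Saline-w10, so the filter fixed that it would be lower in TNBS-w8. Among members with at least 100 in both saline pools, 6 of 34 were 2-fold lower, against 56 of 3538 genes alike. At 3 days, in TNBS-w6 against Saline-w6, 34 of 46 members had lower values, against 52.6% of all genes. Aldh1a3 was 2-fold higher (2.17% of members, 2.55% of all genes), and as only TNBS-w6 admitted it, the filter fixed that direction. Sult1a1 was 2-fold lower (2.17%, against 0.996%). That count of 1 lower depends on the saline pool: against Saline-w10, 8 of 46 members were 2-fold lower in TNBS-w6 (1.65% of all genes). In TNBS-w10, 0 members differed 2-fold in either direction (0.649% of all genes lower, 0.834% higher). In TNBS-w12, Cyp3a13 and Ugt2b5 were 2-fold lower (0.88% of all genes) and Cyp2f2 and Gstm2 2-fold higher (0.718%). Cyp2f2 passed the filter only through TNBS-w12, so the filter fixed that it would be higher there. TNBS-w8, TNBS-w10 and TNBS-w12 share the 1 Saline-w10 pool, so its own deviations enter all 3.

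**Figure D1:**
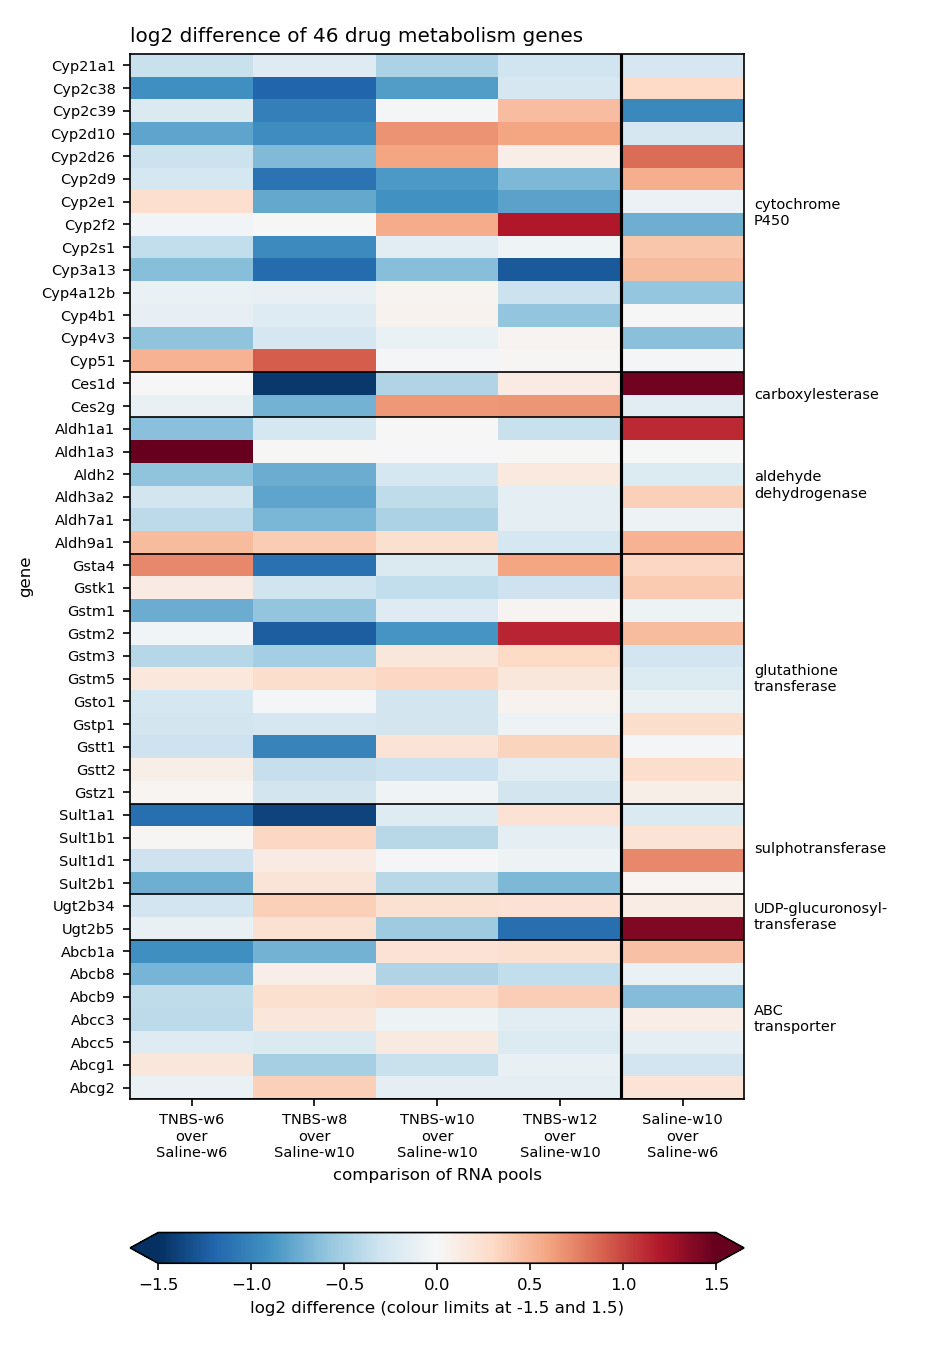
log2 difference of each of the 46 members past the filter (1 line each, by family) in the 4 comparisons of a TNBS pool with its saline pool, and in the last column of the later with the earlier saline pool; blue is lower and red higher in the first-named pool. The TNBS-w8 column holds the 9 members lower by 2-fold or more, while the last column shows Ces1d, Ugt2b5 and Aldh1a1 differing between the saline pools alone.

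The medians were read for each phase in turn. At week 6 the median log2 difference was -0.27 for phase 1, -0.26 for phase 2 and -0.38 for efflux, while the median of all 4316 genes was -0.02. That efflux median is the value of Abcb9, which passed the filter only through Saline-w6 and so had to be lower in TNBS-w6. The order of the phases at week 6 is therefore not read as a result. At week 8 it was -0.70 for phase 1, -0.27 for phase 2 and 0.10 for efflux, against -0.07 over all genes, and the efflux median turned to -0.28 against the other saline pool. By week 10 the medians were -0.06, -0.22 and -0.08 for phase 1, phase 2 and efflux, and by week 12 they were -0.10, 0.05 and -0.15, with all genes at -0.0041 and 0. Members below 0 numbered 34, 32, 31 and 25 of 46 at weeks 6, 8, 10 and 12, which compares with 52.6%, 56.5%, 50.6% and 49.7% of all genes. The week 6 and week 8 comparisons use different animals on both sides. In both of them, 16 of 22 phase 1 members were below 0 (72.7%), as were 7 of 17 phase 2 members (41.2%) and 2 of 7 efflux members (28.6%), against 36% of all genes. Among members with at least 100 in both saline pools, which leaves out those admitted by 1 saline pool, it was 21 of 34 (61.8%), against 38.8% of 3538 genes alike. No test was made of these shares, because the members are not replicates.

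**Figure D2:**
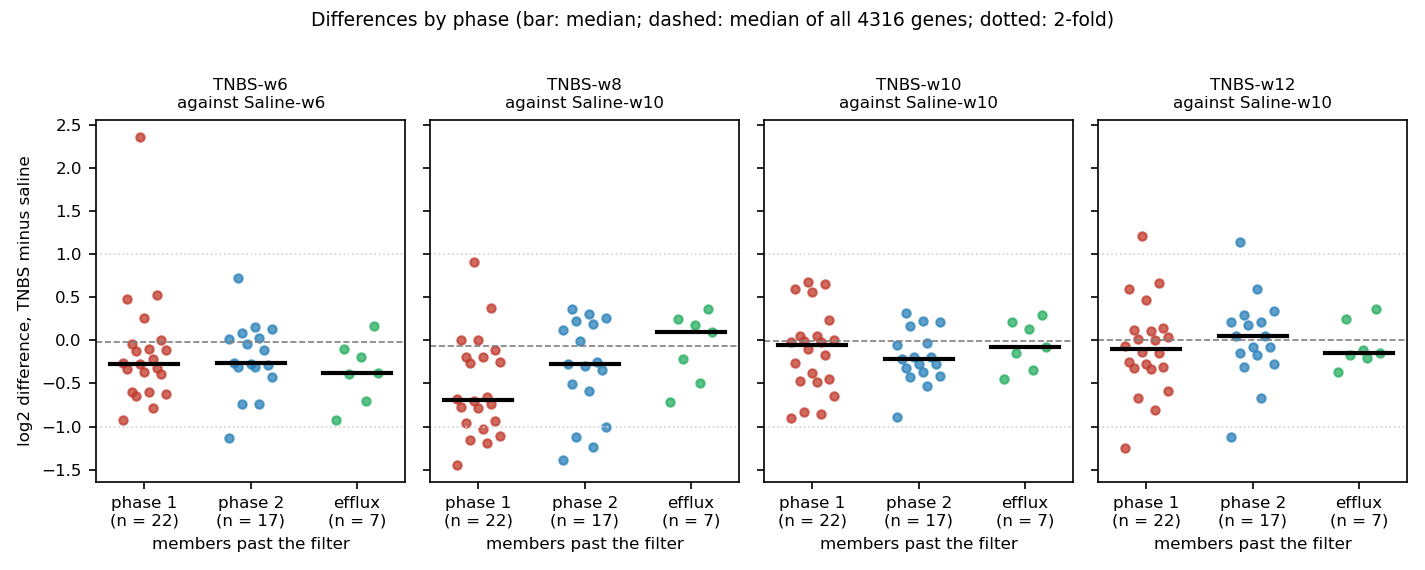
log2 difference of the members past the filter by phase in each comparison, with 1 point per gene, the phase median as a bar, the median of all 4316 genes dashed and 2-fold dotted. The phase 1 points lie lowest at week 8, where their median is -0.70, and the efflux points lie around 0 there, with a median of 0.10.

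Cytochrome P450 enzymes insert oxygen into their substrates and make up most of phase 1. Of the 14 that passed the filter, 12 were below 0 at week 6 and 12 at week 8, against 52.6% and 56.5% of all genes. Their median log2 differences were -0.29 and -0.72. Cyp4v3, admitted only through Saline-w6, had to be lower at week 6. Likewise Cyp2d9, admitted only through Saline-w10, had to be lower at week 8. At week 8 the 9 members of families 1 to 3, which hold most drug-oxidising enzymes, had a median of -0.96 (8 of 9 below 0). The 5 of other families had -0.19 (4 of 5 below 0). The saline pools differed too, with Saline-w10 against Saline-w6 at a median of 0.30 in families 1 to 3 and -0.25 in the others. The part of the saline pool in this contrast was not tested. Cyp3a13, a CYP3A enzyme of the mouse intestine, had a signal of 315 in TNBS-w6, 307 in TNBS-w8, 438 in TNBS-w10 and 286 in TNBS-w12, against 590.2 and 410.2 on the Saline-w6 arrays and 682 in Saline-w10. TNBS-w6, TNBS-w8 and TNBS-w12 lay below all 3 saline arrays, and TNBS-w10 lay between the arrays of the Saline-w6 pool. It was 1.56-fold lower in TNBS-w6, 2.23-fold lower in TNBS-w8, 1.56-fold lower in TNBS-w10 and 2.39-fold lower in TNBS-w12 than in the matched saline pool.

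The CYP2C enzymes oxidise drugs, retinoids and fatty acids. Cyp2c38 gave 82.3, 83.8, 107 and 161 in the TNBS pools of weeks 6, 8, 10 and 12, against 159 and 153 on the Saline-w6 arrays and 192 in Saline-w10. Only TNBS-w12 reached the level of a saline array, and the gene was 1.89-fold lower in TNBS-w6 and 2.29-fold lower in TNBS-w8. The probe set read for Cyp2c38 is of a kind that can bind more than 1 transcript, so its signal may not be of that gene alone. Those read for Cyp2d10, Cyp21a1, Aldh2, Aldh7a1, Ces1d and Ugt2b5 are alike in this. Cyp2c39, known as a retinoic acid hydroxylase in mouse liver, gave 171, 28.4, 101 and 140 in the same TNBS pools, against 214 and 185 in Saline-w6 and 102 in Saline-w10. TNBS-w8 was the one pool under 50, so the gene was at least 2.04-fold lower there, but the saline pools themselves differed, with Saline-w10 differing from Saline-w6 by -0.96 on the log2 scale.

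The CYP2D enzymes oxidise many basic drugs in humans and steroids in the mouse. Cyp2d10 and Cyp2d26 had the same signs in all 4 comparisons, whereas Cyp2d9 was lower in each. Cyp2d10 gave 317 in TNBS-w6, 240.3 in TNBS-w8, 734 in TNBS-w10 and 690.0 in TNBS-w12, against 623 and 481 in Saline-w6 and 458 in Saline-w10. It was thus 1.73-fold and 1.91-fold lower in the first 2 TNBS pools and 1.60-fold and 1.51-fold higher in the last 2, and its second probe set had the same signs in all 4 comparisons. Cyp2d26 gave 67.7, 95.2, 227 and 162 in the TNBS pools, against 72.7 and 98.1 in Saline-w6 and 151 in Saline-w10. Its log2 differences were -0.32, -0.66, 0.59 and 0.10, and Saline-w10 lay 0.83 above Saline-w6 on that scale. Cyp2d9 gave lower values in each TNBS pool, with 75.1, 60.9, 72.7 and 82.6, against 94.4 and 86.7 in Saline-w6 and 132 in Saline-w10. These values sit near the floor, and Cyp2d9 passed the filter only through the Saline-w10 pool that the later comparisons use. A probe set that carries a second CYP2D symbol beside Cyp2d9, and so names neither, gave 362, 367, 614 and 610.5 in the TNBS pools, against 698 and 611 in Saline-w6 and 644 in Saline-w10. That set was low in TNBS-w6 and TNBS-w8 and near saline in TNBS-w10 and TNBS-w12. A set shared by 4 CYP2C symbols gave 184, 192, 362 and 499 in the TNBS pools, against 314 and 322 in Saline-w6 and 270.4 in Saline-w10.

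Other P450 genes had patterns of their own. Cyp2f2, which activates naphthalene in the mouse airway, gave 80.5, 26.4, 73.5 and 115 in the TNBS pools from week 6 to week 12, against 79.3 and 87.2 in Saline-w6 and 49.1 in Saline-w10, and was at least 2.31-fold higher in TNBS-w12 than in Saline-w10. Its 2-fold call rests on the low value of 1 saline pool, since TNBS-w12 lay 0.47 on the log2 scale above Saline-w6. Cyp2f2 also passed the filter only through TNBS-w12, which fixed that it would be higher there. Cyp2e1, the ethanol-inducible P450, gave 156 in TNBS-w6 and 65.5 to 72.0 in the later TNBS pools, against 141 and 121 in Saline-w6 and 122.8 in Saline-w10. Cyp51, an enzyme of cholesterol synthesis, ran against the family with 189 and 245 in TNBS-w6 and TNBS-w8 and 128 and 131 in TNBS-w10 and TNBS-w12, against 126 to 136 on the saline arrays. It was 1.44-fold higher in TNBS-w6 and 1.88-fold higher in TNBS-w8. Cyp21a1, the steroid hydroxylase of glucocorticoid synthesis, gave 160 to 209 in the TNBS pools and 222 to 265 on the saline arrays. It was 1.14-fold to 1.39-fold lower, and it is named for its small pooled p-value, a choice that favours groups lying apart.

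**Figure D3:**
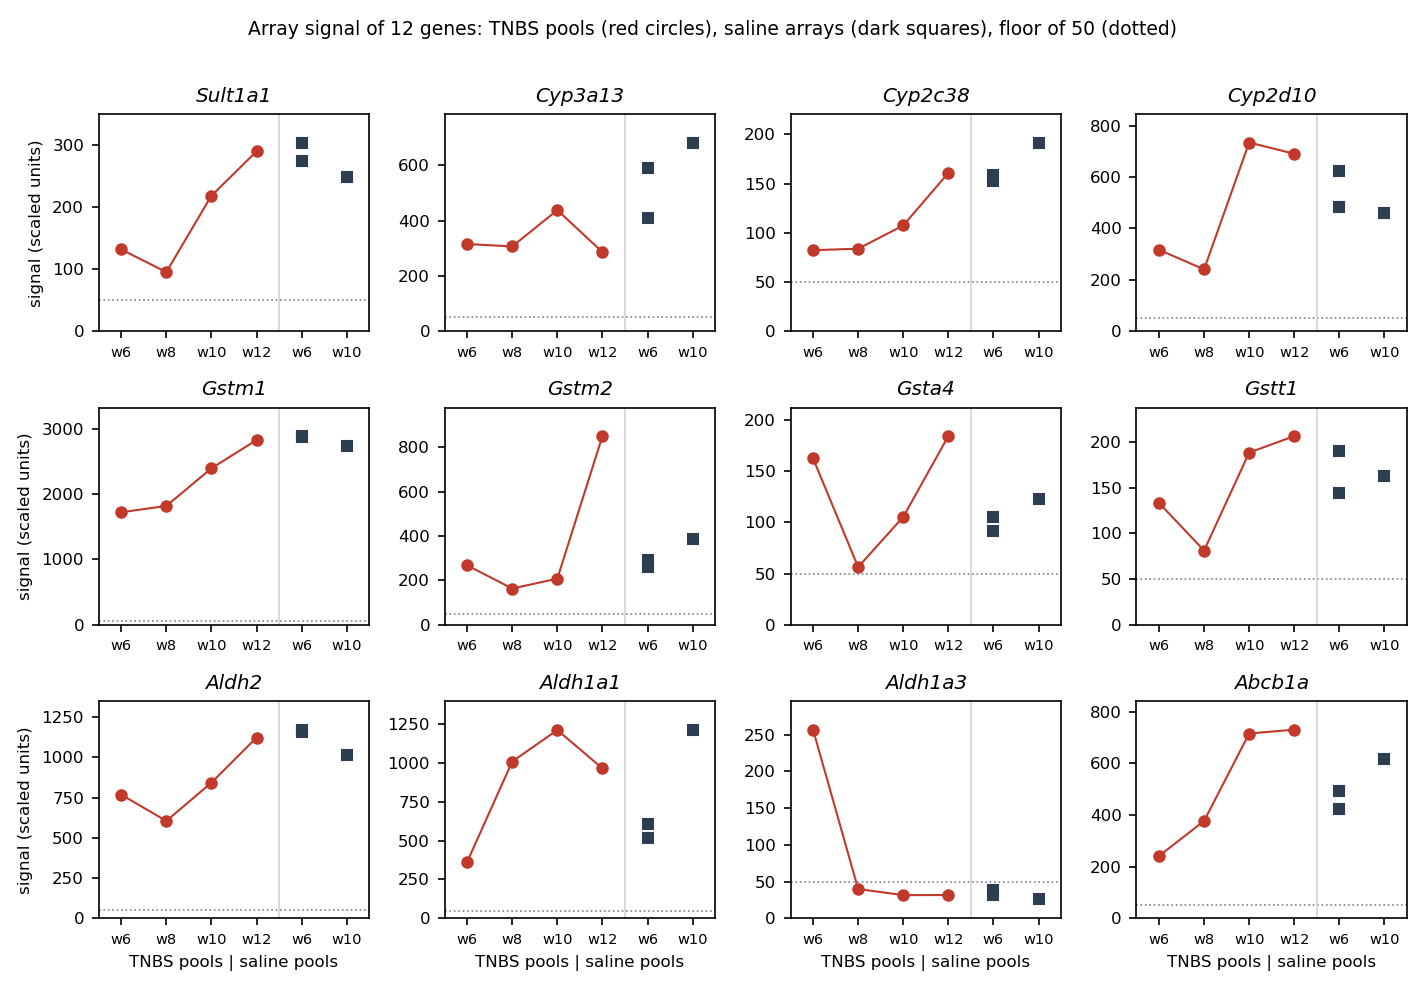
Array signal of 12 members in each pool on a linear axis, with the 4 TNBS pools as red circles joined in order of time and the 3 saline arrays as dark squares (2 arrays of the Saline-w6 pool and 1 of Saline-w10). Sult1a1, Gstt1 and Cyp2d10 are lowest in TNBS-w8 and are above that level in TNBS-w10, Cyp3a13 is still at 286 in TNBS-w12, and Aldh1a3 exceeds the floor of 50 only in TNBS-w6.

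Aldehyde dehydrogenases oxidise aldehydes from alcohol, lipids and vitamin A. Aldh2, the mitochondrial enzyme that clears acetaldehyde, gave 768, 605, 843 and 1123 in the TNBS pools from week 6 to week 12, against 1172 and 1157 in Saline-w6 and 1013 in Saline-w10. Its 3 probe sets were lower in TNBS-w6 by 0.60 to 0.83 and in TNBS-w8 by 0.74 to 0.83 on the log2 scale. Aldh7a1, an enzyme of lysine breakdown, gave 82.5 to 121 in the TNBS pools and 126 to 156 on the saline arrays, values near the floor. It too is named for its small pooled p-value, and its second probe set was higher in TNBS-w6 by 0.29 on the log2 scale.

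The retinal dehydrogenases make retinoic acid. Aldh1a3 gave 257 in TNBS-w6 and 31.6 to 39.9 in the other TNBS pools, against 31.7 and 38.0 in Saline-w6 and 26.3 in Saline-w10. It was at least 5.14-fold higher in TNBS-w6 than in Saline-w6 and under 50 everywhere else, so that pool alone admitted it to the comparisons. Aldh1a1 gave 363 in TNBS-w6, 1008 in TNBS-w8, 1211 in TNBS-w10 and 964 in TNBS-w12, against 608 and 516 in Saline-w6 and 1213 in Saline-w10. Its values split by time, with the later saline pool 2.17-fold above the earlier one, and within the matched comparisons it was 1.54-fold lower in TNBS-w6 and 1.00-fold to 1.26-fold lower in the later pools.

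Carboxylesterases cleave ester drugs and lipids. Ces1d, which also serves as a triacylglycerol hydrolase in fat, gave 13.1, 36.4, 100 and 149 in the TNBS pools, against 47.1 and 40.1 in Saline-w6 and 136 in Saline-w10. It was at least 2.73-fold lower in TNBS-w8, and by the same numbers Saline-w10 was at least 2.73-fold above Saline-w6, so against the earlier saline pool TNBS-w8 shows no difference. Ces2g, an esterase of the gut and liver, gave 114, 66.9, 172 and 173 in the TNBS pools, against 115 and 133 in Saline-w6 and 109 in Saline-w10. TNBS-w8 was the lowest of all pools at 1.64-fold below Saline-w10, and TNBS-w10 and TNBS-w12 were both 1.58-fold above it.

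Sulphotransferases pass sulphate to phenols, steroids and amines. Sult1a1, the phenol sulphotransferase, was the member that was 2-fold lower at both early times: it gave 132 in TNBS-w6, 95.3 in TNBS-w8, 218 in TNBS-w10 and 290.0 in TNBS-w12, against 304 and 274 in Saline-w6 and 249 in Saline-w10. The first 2 TNBS pools lay below every saline array and TNBS-w12 lay among them. It was 2.19-fold lower in TNBS-w6 and 2.62-fold lower in TNBS-w8, and then 1.14-fold lower in TNBS-w10 and 1.16-fold higher in TNBS-w12. The week 6 difference was under 2-fold against Saline-w10 (-0.92 on the log2 scale), with log2(value + 50) (-0.90) and with the mean of its probe sets (-0.57), the second of which read under 9 on all arrays. Sult1b1, which sulphates thyroid hormone and phenols, did not share this pattern, with 690.1, 972, 586 and 712 in the TNBS pools, against 659 and 707 in Saline-w6 and 785 in Saline-w10. Sult1d1, which acts on catecholamines in the mouse, gave 161 in TNBS-w6 and 309 to 356 in the later TNBS pools, against 209 and 190 in Saline-w6 and 327 in Saline-w10.

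Glutathione transferases join glutathione to electrophiles, and the mu class genes (Gstm1 to Gstm6) lie side by side on chromosome 3. Of 11 that passed the filter, 6 were below 0 at week 6 and 10 at week 8, against 52.6% and 56.5% of all genes. Their medians were -0.04 and -0.35 on the log2 scale. Gstm1 gave 1719.8, 1816, 2391 and 2823 in the TNBS pools, against 2876 and 2884 in Saline-w6 and 2733 in Saline-w10, which is 1.68-fold lower in TNBS-w6 and 1.51-fold lower in TNBS-w8. Its second probe set, of lower signal, differed by -0.13 in TNBS-w6 and -0.28 in TNBS-w8 on the log2 scale. Gstm2 gave 268 in TNBS-w6, 163 in TNBS-w8, 208 in TNBS-w10 and 851 in TNBS-w12, against 262 and 291 in Saline-w6 and 385 in Saline-w10. It was 2.36-fold lower in TNBS-w8 and 2.21-fold higher in TNBS-w12. Its second probe set, of lower signal, was below saline by 0.10 in TNBS-w8 and above it by 0.47 in TNBS-w12 on the log2 scale. Gstm5, by the probe set used, gave 1464, 1366, 1413 and 1286 in the TNBS pools, against 1225 and 1415 in Saline-w6 and 1138 in Saline-w10, although 1 of its other probe sets, near the floor, differed by -1.23 in TNBS-w6, -0.18 in TNBS-w8 and -0.88 in TNBS-w10 and TNBS-w12 on the log2 scale. Several of these probe sets are of the kind that can bind more than 1 family member, so how signal divides among the mu genes is uncertain.

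Gsta4 and Gstt1, of the alpha and theta classes, had their lowest values at week 8. Gsta4, which clears the aldehydes of lipid peroxidation, gave 163, 56.4, 105 and 184 in the TNBS pools, against 106 and 92.0 in Saline-w6 and 122 in Saline-w10. It was therefore 1.65-fold higher in TNBS-w6, 2.17-fold lower in TNBS-w8 and 1.51-fold higher in TNBS-w12. Gstt1, a theta class enzyme that acts on small halogenated compounds, gave 133, 81.2, 188 and 206 in the TNBS pools, against 190 and 144 in Saline-w6 and 163 in Saline-w10, and was 2.01-fold lower in TNBS-w8, just past the limit. Gstp1, the pi class enzyme, varied little, with 1580.4 to 2171 in the TNBS pools and 1894 to 2296 on the saline arrays, and was 1.06-fold to 1.21-fold lower throughout.

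UDP glucuronosyltransferases attach glucuronic acid to steroids, bile acids and drugs. Ugt2b34 gave 730.0, 1238, 1129 and 1119 in the TNBS pools, against 975 and 814 in Saline-w6 and 963 in Saline-w10, and was thus 1.22-fold lower in TNBS-w6 and 1.29-fold, 1.17-fold and 1.16-fold higher afterwards. Ugt2b5 gave 26.9, 166, 98.4 and 65.2 in the TNBS pools, against 48.4 and 58.8 in Saline-w6 and 142 in Saline-w10. It was 2.18-fold lower in TNBS-w12, but Saline-w10 itself was 2.62-fold above Saline-w6, and against Saline-w6 the TNBS-w12 value was higher by 0.27 on the log2 scale. A probe set shared by 8 Ugt1a symbols, which names none of them, gave 1484, 1877, 1956 and 1791 in the TNBS pools, against 1873 and 1853 in Saline-w6 and 2073 in Saline-w10.

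Among the 7 transporters past the filter, none differed 2-fold in any comparison. Abcb1a, which encodes P-glycoprotein and returns drugs to the gut lumen, gave 241 in TNBS-w6, 377 in TNBS-w8, 715 in TNBS-w10 and 730.2 in TNBS-w12, against 493 and 424 in Saline-w6 and 618 in Saline-w10. The first 2 TNBS pools lay below all saline arrays and the last 2 above them: it was 1.89-fold lower in TNBS-w6 and 1.64-fold lower in TNBS-w8, then 1.16-fold and 1.18-fold higher. Abcc3, which exports glucuronides and bile salts across the basal membrane, gave 750, 1195, 1002 and 941 in the TNBS pools, against 925 and 1047 in Saline-w6 and 1058 in Saline-w10. Abcg2, the breast cancer resistance protein of the apical membrane, gave 272 to 429 in the TNBS pools and 281 to 334 on the saline arrays. The remaining 4 (Abcb8, Abcb9, Abcc5 and Abcg1) include transporters of organelles and of cholesterol, and their log2 differences ran from -0.70 to 0.36.

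The stretches before the start sites of 4 genes are shown because they mark the range within the set: Sult1a1, Cyp3a13 and Gstm2 were 2-fold different in more than 1 comparison, and Gstm5, chosen after its values were seen, differed little by the probe set used. Each is the 250 bases before the RefSeq start on build GRCm38.p6, written 5′ to 3′ on the strand of the gene, with every CpG dinucleotide in capitals.
Sult1a1, chr7:126676419-126676668, minus strand: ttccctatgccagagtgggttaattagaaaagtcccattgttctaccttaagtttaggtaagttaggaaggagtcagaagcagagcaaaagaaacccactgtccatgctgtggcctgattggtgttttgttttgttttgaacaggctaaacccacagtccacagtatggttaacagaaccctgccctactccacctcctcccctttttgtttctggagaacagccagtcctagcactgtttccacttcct
Cyp3a13, chr5:137921620-137921869, minus strand: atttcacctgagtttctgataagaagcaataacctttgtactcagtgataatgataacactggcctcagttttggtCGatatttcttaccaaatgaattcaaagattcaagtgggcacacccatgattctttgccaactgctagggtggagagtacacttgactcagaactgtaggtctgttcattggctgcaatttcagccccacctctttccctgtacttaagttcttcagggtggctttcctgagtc
Gstm2, chr3:107986421-107986670, minus strand: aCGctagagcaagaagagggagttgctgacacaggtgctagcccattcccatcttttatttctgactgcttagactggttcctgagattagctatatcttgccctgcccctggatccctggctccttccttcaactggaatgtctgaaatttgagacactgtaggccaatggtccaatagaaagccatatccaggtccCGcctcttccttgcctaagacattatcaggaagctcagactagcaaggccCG
Gstm5, chr3:107895604-107895853, plus strand: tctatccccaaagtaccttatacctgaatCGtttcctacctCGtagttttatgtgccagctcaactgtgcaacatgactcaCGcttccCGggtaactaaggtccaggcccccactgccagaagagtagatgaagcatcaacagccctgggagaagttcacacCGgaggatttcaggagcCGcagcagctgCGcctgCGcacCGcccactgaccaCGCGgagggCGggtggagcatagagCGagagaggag
Sult1a1 has 0 CpG in this window, Cyp3a13 has 1, Gstm2 has 3 and Gstm5 has 13. RefSeq windows were found for 35 of the 46 members (43 windows, some genes having several starts). Their median was 3 CpG and 51.6% GC, against 16 CpG and 60% GC over 4529 windows of all genes past the filter, and 6 CpG and 52.4% GC over all 32851 windows. Windows were found for 9 of the 12 members that were 2-fold different in any comparison, and these 10 windows had a median of 1 CpG and 44.2% GC. The core letters of the antioxidant response element, TGACNNNGC on either strand, occurred in 2 of the 43 windows (4.65%), against 11.1% for all genes past the filter. Those of the xenobiotic response element, GCGTG on either strand, occurred in 11 (25.6%), against 45.4%. Gstm5 holds 1 match of the first and 2 of the second, and none of the 10 windows of the 2-fold members holds either. A match describes letters in these windows and is no evidence of binding. The letters GCGTG include a CpG, of which the members' windows hold few.

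The level at 6 weeks was also set directly against that at 2 weeks, a comparison added after the values were seen that avoids the shared saline pool. In TNBS-w12, 9 of 46 members were at least 2-fold above TNBS-w8, against 3.22% of all genes, and 1 was 2-fold below, against 2.78%. The higher ones were Gstm2 (5.21-fold), Gsta4 (3.27-fold), Sult1a1 (3.04-fold), Ces1d (at least 2.98-fold), Cyp2d10 (2.87-fold), Cyp2c39 (at least 2.81-fold), Ces2g (2.58-fold), Gstt1 (2.54-fold) and Cyp2f2 (at least 2.31-fold). Cyp2f2 passed the filter only through TNBS-w12, so its place among them follows from the filter. Ugt2b5 was the lower one, at 2.55-fold. By phase, the median log2 difference was 0.50 for phase 1, 0.07 for phase 2 and 0.01 for efflux, against 0.06 over all genes. Cell markers differed between the same pools, with medians of -4.04 for pancreatic, -1.47 for adipose, -0.96 for goblet cell, -0.44 for smooth muscle and -0.18 for absorptive colonocyte markers, and their part in the members' differences was not tested. The TNBS-w8 pool is the one used in the week 8 comparison, so the 2 lists are not independent. Cyp3a13, 2-fold lower in both pools against saline, gave 286 in TNBS-w12 and 307 in TNBS-w8.

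**Figure D4:**
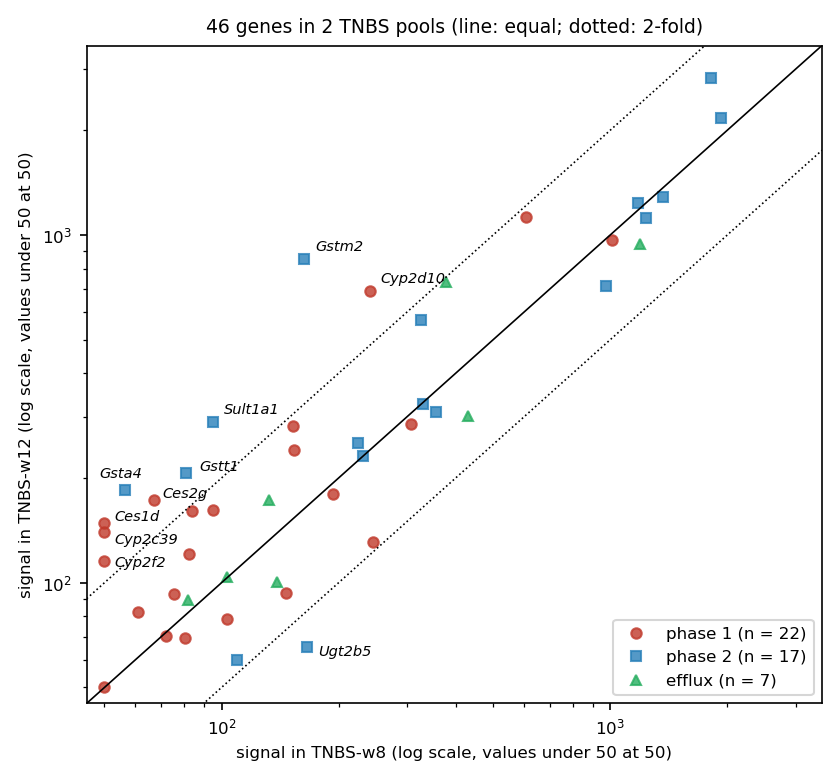
Signal of the 46 members in TNBS-w12 (vertical, log scale) against TNBS-w8 (horizontal, log scale), coloured by phase, with equality as a solid line and 2-fold as dotted lines; values under 50 are drawn at 50. The 9 named points above the upper dotted line were 2-fold higher in TNBS-w12 and Ugt2b5 lies below the lower one.

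The saline pools set the scale for such differences. Saline-w10 exceeded Saline-w6 by 2-fold or more for 3 members, Ces1d (at least 2.73-fold), Ugt2b5 (2.62-fold) and Aldh1a1 (2.17-fold), against 0.857% of all genes, and 0 members were 2-fold lower, against 0.95%. Against the earlier saline pool, 4 of 46 members were 2-fold lower in TNBS-w8 in place of 9, against 3.2% of all genes, and Ugt2b5 was 2-fold higher. The 4 were Cyp2c39, Cyp2d10, Gstt1 and Sult1a1. Against the later saline pool, 8 were 2-fold lower in TNBS-w6 in place of 1: Abcb1a, Aldh1a1, Ces1d, Cyp2c38, Cyp2d26, Cyp3a13, Sult1d1 and Ugt2b5. When array medians were made equal, the 2-fold lower members at week 8 were 4 (Ces1d, Cyp2c38, Gstm2 and Sult1a1), against 0.718% of all genes, and Cyp51 was 2-fold higher. That scaling raised the median gene by 0.17 at week 8, and it changed the split of all 2-fold genes there to 31 lower and 114 higher, against 76 lower and 66 higher as deposited.

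Taking the 4 TNBS pools as stand-ins for replicates, limma was fitted to 4 TNBS and 2 saline pools, allowing the week 6 and later sets their own saline level, which left 3 residual degrees of freedom. It called 0 of 46 members and 0 of 4316 genes at an adjusted p under 0.05 (0.0% in each direction). At an unadjusted p under 0.05 it had 3 members lower, against 2.29% of all genes, and 0 higher, against 2.83%. They were Cyp3a13, with a log2 difference of -0.87 (SE 0.22, unadjusted p = 0.0039 in limma), Cyp2c38 with -0.82 (SE 0.28, unadjusted p = 0.018) and Cyp2d9. The first 2 were lower in 4 of 4 TNBS pools, each with a limma adjusted p of 0.886, which ran from 0.679 to 1 for Cyp3a13 and from 0.657 to 1 for Cyp2c38 over the alternative settings. Cyp2d9 passed the filter only through Saline-w10, which favours a lower value in TNBS, so its p is void and is not given. Whether the difference at week 6 was unlike the mean of the later ones was tested as an interaction with 2 residual degrees of freedom. It called 0 members in limma (0.0% of all genes in either direction), with 2 higher at an unadjusted p under 0.05, against 1.14% of all genes, and 0 lower, against 0.718%. They were Cyp2e1 (log2 1.08, SE 0.41, unadjusted p = 0.041, limma adjusted p = 0.999) and Aldh1a3. The value of Aldh1a3 in TNBS-w6 is the one that admitted it and all its other values are at the floor, so its p is void and is not given.

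Genes that surround these families were read from 4 lists. The first held receptors that sense foreign chemicals and their partners, and also broader transcription factors such as Cebpa, Cebpb and Hnf4a. Of its 26 genes, 23 were on the array and 14 passed the filter. The median log2 differences of the 14 were -0.05, -0.34, -0.13 and -0.21 at weeks 6, 8, 10 and 12. At week 8, 1 was 2-fold lower (1.76% of all genes), the retinoid X receptor gene Rxrb. It gave 354, 244, 278 and 387 in the TNBS pools, against 394 and 418 in Saline-w6 and 506 in Saline-w10. The dioxin receptor gene Ahr read 51.2 to 57.6 in the TNBS pools and 38.8 to 55.5 on the saline arrays. Nr1i2, the pregnane X receptor that controls CYP3A genes, read 48.6 to 64.1 in the TNBS pools and 76.0 to 81.4 on the saline arrays. Neither passed the filter. Nfe2l2, the regulator of antioxidant response genes, gave 383, 560, 432 and 421 in the TNBS pools, against 432 and 453 in Saline-w6 and 579 in Saline-w10, and its classical target Nqo1 read 30.2 to 55.4 over all arrays and did not pass. In the pooled limma fit 0 genes of this list passed the adjusted threshold. Rxrb (lower, as for 2.29% of all genes), Nr1h4 and Cebpb (both higher, as for 2.83%) had an unadjusted p under 0.05.

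Of 11 genes listed for the electron or haem supply of P450 enzymes, 9 were read on the array. Por, the P450 reductase gene, was not among the 9. The 7 that passed the filter included the haem-degrading Hmox1. They had medians of -0.20, 0.11, 0.08 and 0.01, and none of them differed 2-fold. Of 25 other oxidoreductases, 10 passed, with medians of -0.14, -0.21, -0.18 and -0.13. At week 8, 2 of the 10 were 2-fold lower, against 1.76% of all genes. Adh1, the class of alcohol dehydrogenase that oxidises ethanol and retinol, gave 3451, 1538, 3169.5 and 2953 in the TNBS pools, against 4397 and 3855 in Saline-w6 and 3303 in Saline-w10. Hsd11b2, which inactivates glucocorticoids in the colon, gave 500.5, 228, 512 and 432 in the TNBS pools, against 575 and 520.3 in Saline-w6 and 573 in Saline-w10. In both genes TNBS-w8 stood below every other array. Of 24 other conjugating enzymes and cofactor genes, 14 passed, with medians of -0.01, -0.01, -0.11 and -0.11 and none 2-fold different. Gsr and Mgst2 were higher at an unadjusted limma p under 0.05, as were 2.83% of all genes.

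Markers of the cells in the tissue were read in the same pools. The 23 absorptive colonocyte markers summed to 45503 to 62965 in the TNBS pools and 53234 to 58003 on the saline arrays, and the 20 that passed the filter had median log2 differences of -0.34 at week 6 and 0.04 at week 8. The summed colonocyte signal of TNBS-w8 was the highest of the 7 arrays, but its single markers were divided. Against Saline-w10, 10 of the 20 were below 0 and 10 above, from -1.58 to 0.86 on the log2 scale. Tff3, one of the bright genes in that sum, also stands in the goblet cell list, and the bright Krt8 and Krt19 occur in other epithelial cells too. At week 6, 3 of the 20 were 2-fold lower (Car4, Slc20a1 and Fabp2), against 0.996% of all genes. None of the 20 was 2-fold higher there, against 2.55%. The goblet cell markers had medians of -0.12 at week 6 and 0.60 at week 8, and the smooth muscle markers -0.22 and 0.11. Leukocyte markers summed to 4613 to 7800.4 in the TNBS pools and 4325 to 5077 on the saline arrays, with medians of 0.88 at week 6 and 0.29 at week 8. Pancreatic enzyme markers summed to 2214 to 8451 in the TNBS pools and 1906 to 2253 on the saline arrays. Within these sums Cela1 alone gave 1633 to 2209 in the TNBS pools and 1235 to 1843 on the saline arrays. The list medians of 2.41 at week 6 and 2.87 at week 8 stood in the same pools as the low members. Adipose markers summed to 1371 to 2527 in the TNBS pools and 1532 to 1873 on the saline arrays, and Adipoq gave 98.5, 143, 130.4 and 23.9 in the TNBS pools, against 45.3 and 58.9 in Saline-w6 and 134 in Saline-w10. Of 10 hepatocyte markers on the array, 9 did not pass the filter, with Alb at 12.6 to 31.7 over all arrays, and the list summed to 233 to 262 in the TNBS pools and 248 to 326 on the saline arrays. The part of these cell markers in the members' differences was not tested.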

How the data were processed

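Colon RNA pools were hybridised to a mouse Affymetrix array of 12488 probe sets. Per the labels, the authors scaled the signal intensity of all probe sets to a target of 150 in Affymetrix Microarray Suite 5.0, and the deposited intensity values were used as given. The arrays carry no read depth, and the number of pools limits the precision. The genome build behind the array design is not given in the sources used here.

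Of the probe sets, 66 controls and 396 with several symbols were left out, and 1193 carried no symbol. Of the 10833 with 1 symbol, 10817 matched RefSeq (GRCm38.p6), which served for symbols, chromosomes and promoter sequences. Intensities under 50 were set to 50 and taken to log2, each gene was read from its probe set of highest mean log2 value, both arrays of the Saline-w6 pool were averaged on the log2 scale, and genes with at least 100 in the highest of 6 pools were kept. Among the members were 127 probe sets, and 8 that carry several symbols entered no comparison.

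Differences between single pools were described at 2-fold or more. The pooled and interaction models were fitted in limma 3.58.1 under R 4.3.3 (lmFit and eBayes with trend, two-sided, Benjamini-Hochberg over 4316 genes), after the code was tested on simulated data, and summaries were made in Python 3.11.15 with pandas 2.3.3. Nothing says that the pools repeat a condition, so p-values measure the spread between pools of different times.

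Members were named where they were 2-fold different in a matched comparison, called in the pooled model, among the 2 highest mean log2 values of their family or among the 8 smallest pooled p-values. Others named in the text were chosen after their values were seen. The members and the lists were chosen with earlier results of these data known. Alternatives were floors of 25 and 100, log2(value + 50), quantile normalization, equal array medians, the mean of probe sets, other filters, the other saline pool, pools or arrays left out, and no control set covariate.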

Additional observations from a re-analysis of the deposited data

Results flagged for a closer look

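Gstm2, a mu class glutathione transferase, had opposite differences from the same saline pool at 2 times. Its log2 difference from Saline-w10 was -1.24 in TNBS-w8 and 1.14 in TNBS-w12. The difference between the times was not tested, since neither has a replicate pool. On the log2 scale its second probe set gave -0.10 in TNBS-w8 and 0.47 in TNBS-w12.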

How the results depend on the processing

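With 1 pool per condition, the limits come from the floor, the scaling and the saline pool chosen. No paired analysis was possible because the labels give no replicate number that TNBS and saline pools share. Of the counts and medians recomputed, 184 kept their size within the set limits and 36 did not. The share of all genes stands in brackets. At week 6 the count of members 2-fold lower, 1 as reported, was 0 with log2(value + 50) (0.463%) and with the mean of probe sets (0.834%), 8 against the other saline pool (1.65%), and 2 when either Saline-w6 array was left out (1.18% and 1.2%), while the count higher was 0 with a mean of at least 100 over pools (1.98%). At week 8 the count lower, 9 as reported, was 3 with a floor of 100 (0.649%), 4 with log2(value + 50) (0.44%), 5 with quantile normalization (1.04%), 4 with equal array medians (0.718%) and 4 against the other saline pool (3.2%), and the count higher was 1 in each of the last 2 settings (2.64% and 3.29%). At week 10 the count higher was 3 against the other saline pool (Aldh1a1, Ces1d and Cyp2d26, 1.78%). At week 12 the count lower was 1 with a floor of 100 (0.394%), with log2(value + 50) (0.324%) and with a mean of at least 100 over pools (0.787%), and 0 against the other saline pool (2.02%). The count higher there was 1 with a floor of 100 (0.232%), log2(value + 50) (0.371%), the mean of probe sets (0.626%) and a mean of at least 100 over pools (0.38%).

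Without a filter on low values the medians of phase 1 and phase 2 at weeks 6 and 8 and of efflux at week 6 were 0, since 41 of the members added then lie under 50 on all arrays. With a floor of 100 the week 6 medians were -0.043 for phase 2 and -0.19 for efflux, and the week 8 median of phase 1 was -0.28, which was -0.46 with log2(value + 50). Against the other saline pool the week 8 medians were -0.080 for phase 2 and -0.28 for efflux, and the week 10 median of phase 2 was -0.0088. The interaction called 0 members of 0 genes as reported. With a floor of 100 it called 5 members (Abcb9, Aldh1a3, Cyp2d9, Cyp2e1 and Cyp4v3) among 187 of 4316 genes. With no filter it called 3 members (Abcc9, Aldh1a3 and Cyp7b1) among 488 of 8251 genes. In each of these members the signals of TNBS-w8, TNBS-w10 and TNBS-w12 lay under the floor of that setting. They were thus made equal, which left no spread to test against, so these calls are void. The pooled model called 0 members in every setting, of 17 genes with no filter and of 2 genes without TNBS-w12. Of the values of single genes, 93 kept their size, 40 did not, and Ugt2b5 at week 12 reversed to 0.27 against the other saline pool. The causes were not tested.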
